A study of Mus musculus with 63 samples.

Results

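Polycomb repressive complex 2 (PRC2) was followed through its 10 listed subunit and partner genes, Ezh1, Ezh2, Eed, Suz12, Rbbp7, Jarid2, Aebp2, Mtf2, Phf1 and Phf19, in the gene counts of 22 mouse RNA-seq libraries. The genes were taken by symbol, and all 10 were present among the 47517 symbols of every count table and passed the filter on low counts in every fit. The cells came from the C57BL/6 strain and were embryonic stem (ES) cells kept in serum-free 2i medium or extended pluripotent stem (EPS) cells kept in serum-free LCDM medium. Cultures were kept on Matrigel or on feeder fibroblasts whose division had been stopped with mitomycin C, and the labels do not say which of these applied to a library.

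The undifferentiated libraries formed 6 groups: ES (3 libraries), EPS (3), EPS cells with a control hairpin, EPS shCtrl (2), EPS cells with a hairpin against Yy1, EPS shYy1 (2), ES cells with a control overexpression construct, ES oeCtrl (2), and ES cells with a Yy1 overexpression construct, ES oeYy1 (2). The other 4 groups, with 2 libraries each, were the same 4 manipulated lines after 6 days in the medium named F4H, which the labels do not describe further. The titles of the day 6 controls name shCtrl and oeCtrl, whereas their genotype label says only control. Hairpin and construct sequences were not used here, nothing in the labels says whether a line was 1 clone, and nothing says whether replicates came from separate cultures. The spread behind each p-value is therefore that between these libraries, and it may be technical.

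PRC2 is the enzyme complex that places methyl groups on lysine 27 of histone H3, a mark of silenced developmental genes. EZH2 or EZH1 is its methyltransferase subunit, EED binds the mark and stimulates the enzyme, SUZ12 is the scaffold, and RBBP7 or its relative RBBP4 binds histones. The complex comes in a pair of forms. One carries a Polycomb-like protein (PHF1, MTF2 or PHF19) that helps to bring it to CpG islands, and the other carries JARID2 and AEBP2, which bind nucleosomes marked by the other Polycomb complex, PRC1. In ES cells PRC2 is not needed for self-renewal but is needed for orderly differentiation.

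Because the study manipulated Yy1, a zinc finger factor that is the mammalian relative of the Drosophila Polycomb group protein Pleiohomeotic, the 250 bases before each transcript start of the 10 genes (14 starts in RefSeq, GRCm38.p6) were searched on both strands for the core YY1 word AANATGGC. The word lay before a start of 2 of the 10 genes, Phf19 and Jarid2. It occurred in 3.91% of 32851 such windows and before 4.49% of 27025 genes. Both windows are shown from 5′ to 3′ on the strand of the gene with the word, or its reverse complement, in capitals. The first is chr2:34913977-34914226 on the minus strand and the second chr13:44730524-44730773 on the plus strand.
Phf19: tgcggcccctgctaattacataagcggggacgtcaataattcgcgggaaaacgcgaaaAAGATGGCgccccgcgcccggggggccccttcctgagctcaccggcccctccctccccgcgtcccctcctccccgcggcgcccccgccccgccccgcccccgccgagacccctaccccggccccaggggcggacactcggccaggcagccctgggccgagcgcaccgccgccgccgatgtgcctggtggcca
Jarid2: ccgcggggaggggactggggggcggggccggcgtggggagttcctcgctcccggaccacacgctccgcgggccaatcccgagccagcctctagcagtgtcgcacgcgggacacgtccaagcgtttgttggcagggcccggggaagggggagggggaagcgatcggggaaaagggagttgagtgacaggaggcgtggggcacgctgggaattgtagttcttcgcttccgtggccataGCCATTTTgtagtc
The word began 192 bases before the Phf19 start and 14 bases before the Jarid2 start, where it lay in reverse complement. A match in this window is a description of the letters and says nothing of binding.

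Gene counts summed to between 13672061 and 20782348 per library, and values are given as CPM, the reads of a gene per 1000000 gene counts of its library, on which scale 3 counts were worth 0.144 to 0.219 CPM. The 2 EPS shCtrl libraries stood apart from each other, with a chi-square per gene of 20.2 against 1.89 to 7.10 in the other groups of 2, and calls that changed without either of them are given with each comparison. CPM is not corrected for transcript length, so levels are compared across libraries for a gene and never between genes. The summed level of 8 pluripotency markers was 3887 to 6598 CPM in undifferentiated libraries and 182 to 453 CPM on day 6. The Yy1 level was 134 CPM in both EPS shCtrl libraries and 70.5 CPM in both EPS shYy1 libraries, and 120.4 and 123.5 CPM in ES oeCtrl against 934 and 941 CPM in ES oeYy1. On day 6 the construct still gave 324.5 and 331.5 CPM against 119.5 and 126.0 CPM, but in the libraries labelled EPS shYy1 (114 and 109.6 CPM against 129 and 122.5 CPM) the fitted log2 difference of Yy1 was -0.03 ± 0.05 (SE, adjusted p = 0.567). The target gene thus does not bear out the day 6 label, although its CPM did not overlap. The summed level of 4 Y-linked genes was 2.59 to 2.71 CPM in EPS shCtrl and 139 to 139.7 CPM in EPS shYy1, and 16.3 to 17.01 against 167 to 175 CPM in the same lines on day 6. It also differed between ES oeCtrl (108 to 128 CPM) and ES oeYy1 (25.6 to 26.6 CPM). The X-linked gene Xist was 464 to 476 CPM in the day 6 libraries labelled EPS shYy1 and 0.252 to 0.652 CPM in the other day 6 libraries. In undifferentiated cells it was 10.5 to 11.6 CPM in EPS shYy1 and 4.59 to 25.9 CPM in EPS shCtrl. Whether these differences between the lines played a part in any result below, that of X-linked Rbbp7 included, was not tested.

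**Figure D1:**
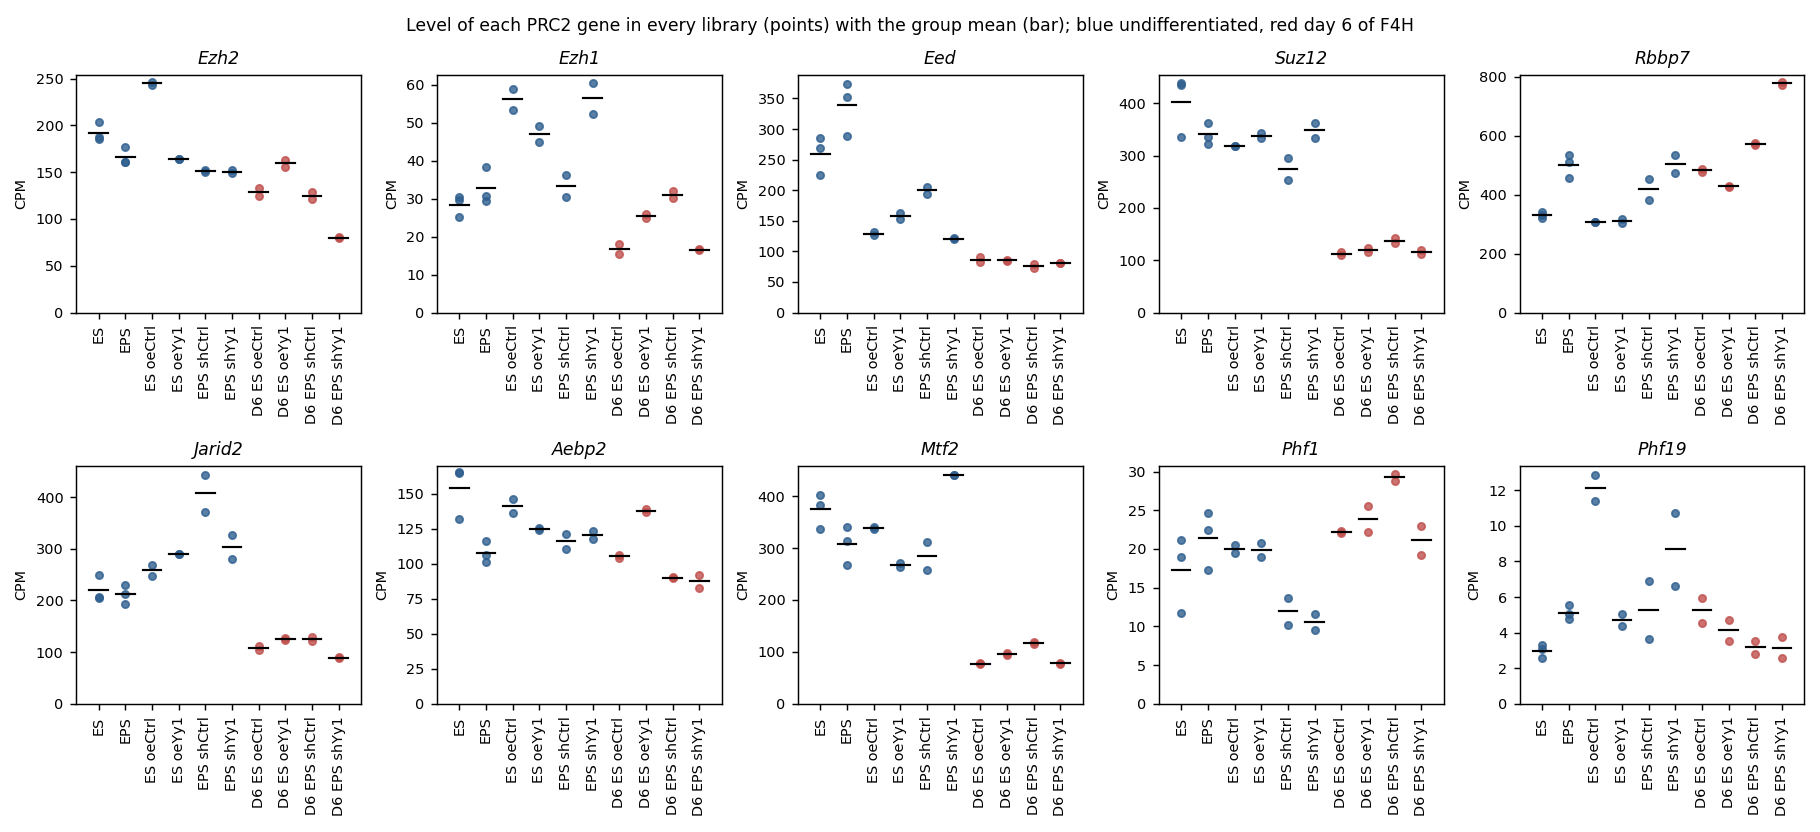
Level of the 10 PRC2 genes in CPM (vertical axis, from 0) in each of 22 libraries (points) with the mean of each of 10 groups (bar); blue groups are undifferentiated and red groups are day 6 of F4H. Suz12, Jarid2, Mtf2 and Eed sat lower in every day 6 library than in any undifferentiated one. The share of all genes so separated is not given here. Rbbp7 reached its highest level, 772.7 and 783 CPM, in the day 6 libraries labelled EPS shYy1.

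The genes differed in how far they ranged. From its lowest to its highest group mean over all 10 groups, Mtf2 spanned 5.68-fold, Jarid2 4.55-fold, Eed 4.48-fold, Phf19 4.07-fold, Suz12 3.58-fold, Ezh1 3.42-fold, Ezh2 3.06-fold, Phf1 2.77-fold, Rbbp7 2.53-fold and Aebp2 1.76-fold. Phf19 was the gene with the fewest reads, at 2.55 to 12.9 CPM, and its fold changes carry the widest errors. Across the 10 group means, several of which come from the same line, Suz12 and Mtf2 moved most closely together (Pearson r = 0.980 of log2 CPM), followed by Jarid2 with Mtf2 (0.895), while Ezh2 and Rbbp7 moved in opposite directions (r = -0.889). All of these correlations include the step between undifferentiated and day 6 groups and are given as a description.

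The comparison of day 6 with undifferentiated cells asks how PRC2 genes changed when each line left the pluripotent state. Suz12, Eed, Jarid2, Mtf2 and Ezh1 were lower in all 4 lines, Rbbp7 was higher in all 4 (in EPS shCtrl the Ezh1 and Rbbp7 calls depended on the fit, as given below), and the other genes changed in some lines. For EPS shYy1 the day 6 values are those of the libraries so labelled. All adjusted p-values are from edgeR's quasi-likelihood F-test with Benjamini-Hochberg adjustment over all genes tested, and a gene was called under 0.05. In bulk RNA, fewer cells of a type and less RNA per cell cannot be told apart.

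Mtf2, which encodes a Polycomb-like protein that binds unmethylated CpG-rich DNA, fell in every line. It was 257 and 312 CPM in EPS shCtrl and 115 and 119 CPM on day 6, and 440.2 CPM in both EPS shYy1 libraries against 76.4 and 79.5 CPM. In ES oeCtrl it went from 338 and 340.3 to 76.7 and 78.4 CPM, and in ES oeYy1 from 264 and 272 to 95.0 and 97.4 CPM. The stages did not overlap in any line. With 2 or 3 libraries per group, a lack of overlap carries little weight by itself, here and below. The fitted log2 changes were -1.42 ± 0.07 (SE), -2.45 ± 0.07, -2.12 ± 0.07 and -1.55 ± 0.07 in that order (adjusted p = 1.04e-13, 1.52e-17, 1.53e-16 and 3e-14).

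Jarid2, the partner that links PRC2 to ubiquitinated nucleosomes, was 372 and 443 CPM in EPS shCtrl and 122 and 129 CPM on day 6, a log2 change of -1.84 ± 0.08 (SE). The change was -1.71 ± 0.08 in EPS shYy1, -1.26 ± 0.08 in ES oeCtrl and -1.28 ± 0.08 in ES oeYy1. The scaffold gene Suz12 fell in 3 lines by like amounts (log2 -1.53, -1.50 and -1.57 in EPS shYy1, ES oeCtrl and ES oeYy1), and its change in EPS shCtrl was -1.13 ± 0.07. In CPM, Suz12 stood at 253 to 363 in the undifferentiated libraries of these 4 lines and at 109.6 to 142 on day 6, with no overlap. Eed, whose protein reads the methyl mark, fell from 205.7 and 193.5 to 79.0 and 72.1 CPM in EPS shCtrl (log2 -1.54 ± 0.07) and less in EPS shYy1 (-0.52), ES oeCtrl (-0.57) and ES oeYy1 (-0.95).

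The methyltransferase genes changed unevenly. Ezh2 fell in EPS shCtrl (log2 -0.42), EPS shYy1 (-0.86) and ES oeCtrl (-0.92), and in ES oeYy1 its log2 difference was -0.11 ± 0.07 (adjusted p = 0.152). Its level in ES oeYy1 was 164.4 and 164.6 CPM before and 156 and 163 CPM on day 6, close beside each other although the ranges did not meet. Ezh1, which encodes the weaker methyltransferase, typical of non-dividing cells, fell from 52.3 and 60.4 to 16.4 and 16.6 CPM in EPS shYy1 (log2 -1.72 ± 0.11) and from 53.4 and 59.0 to 15.5 and 18.1 CPM in ES oeCtrl (-1.74 ± 0.11). In ES oeYy1 it fell by 0.95 on the log2 scale.

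In EPS shCtrl the Ezh1 libraries overlapped between stages (30.5 and 36.2 against 30.1 and 32.0 CPM). The call there (log2 -0.24, adjusted p = 0.0463) did not hold under RLE scaling (0.0590), under DESeq2 (0.0934), without the filter (0.166) or with only the libraries compared (0.121), nor when EPS shCtrl replicate 1 (0.369), day 6 EPS shCtrl replicate 1 (0.249) or day 6 EPS shCtrl replicate 2 (0.0641) was left out.

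Rbbp7, the X-linked histone-binding subunit shared with other chromatin complexes, went the other way. It rose from 382 and 453 to 569 and 574 CPM in EPS shCtrl (log2 0.31 ± 0.09; adjusted p = 0.00397, or 0.0696 with only the libraries compared in the fit), from 473 and 534 to 783 and 772.7 CPM in EPS shYy1 (0.68), from 308 and 307 to 477 and 487 CPM in ES oeCtrl (0.65) and from 304 and 318 to 426 and 430.2 CPM in ES oeYy1 (0.39). Every day 6 library was above every undifferentiated library of its line. Among all X-linked genes tested the median log2 change was 0.23, -0.40, 0.19 and 0.07 in the same order.

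Phf1, a Polycomb-like protein gene, rose in both EPS lines, from 13.7 and 10.2 to 28.8 and 29.7 CPM in EPS shCtrl (log2 1.16 ± 0.14) and from 11.6 and 9.51 to 19.3 and 23.0 CPM in EPS shYy1 (1.05 ± 0.14). In the ES lines its log2 differences were 0.15 ± 0.13 and 0.20 ± 0.13 (adjusted p = 0.298 and 0.185), and whether the lines differ in this was not tested. Undifferentiated ES oeCtrl and ES oeYy1 already stood at 18.98 to 20.7 CPM. Phf19 fell in EPS shYy1 (-1.41), ES oeCtrl (-1.21) and EPS shCtrl (-0.86), and leaving out EPS shCtrl replicate 1 (adjusted p = 0.326) or day 6 EPS shCtrl replicate 1 (0.0995), or fitting only the libraries compared (0.0723), ended the last call. Aebp2, whose protein stabilises the JARID2 form, fell (log2 -0.50, -0.41 and -0.42) in EPS shCtrl, EPS shYy1 and ES oeCtrl, and its log2 difference in ES oeYy1 was 0.08 (adjusted p = 0.325).

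Counted by line, 2 genes rose and 8 fell in EPS shCtrl, 2 rose and 8 fell in EPS shYy1, 1 rose and 8 fell in ES oeCtrl, and 1 rose and 5 fell in ES oeYy1. Of all 17207 genes tested, 74.1%, 75.4%, 73.0% and 72.7% were called in the same lines, so being called is common in this comparison and says little about these genes. The share of all genes called lower was 36.6%, 37.4%, 35.9% and 36.9%, and the share called higher 37.5%, 37.9%, 37.1% and 35.7%. The median log2 change of the 10 genes was -0.68, -1.14, -1.06 and -0.60, against all-gene medians of 0.011, -0.001, 0.034 and -0.026. Summed mitotic markers (12 genes) were also lower on day 6, at 1794 to 2654 CPM against 2793 to 3734 CPM in the undifferentiated lines, and summed fibroblast markers (12 genes) were higher, at 1277 to 1629 against 99.7 to 267 CPM, where Twist2 was at 0 in all 4 undifferentiated groups and Lum in EPS shCtrl. Vim alone made up most of the fibroblast sum, with group means of 890 to 1021 CPM on day 6 and 98.2 to 241 CPM before. Not every mitotic marker followed its sum. On day 6, 2 were called higher and 8 lower in EPS shCtrl, and 0 and 12 in EPS shYy1. In ES oeCtrl 1 was called higher and 9 lower, and in ES oeYy1 2 and 7. The part of the mitotic and fibroblast markers in the result was not tested.

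**Figure D2:**
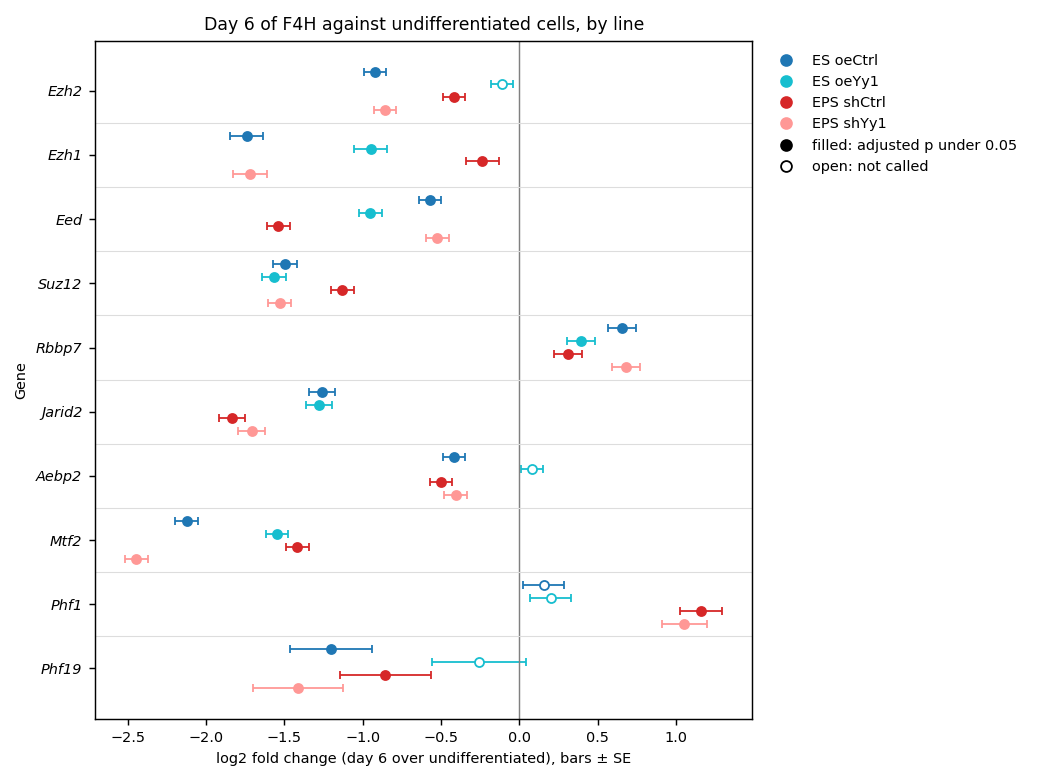
Fitted log2 fold change of each PRC2 gene on day 6 over the undifferentiated state (horizontal axis, points ± SE) in the 4 lines named in the legend, with filled points where the adjusted p was under 0.05. Mtf2, Suz12, Jarid2 and Eed lie left of 0 in every line and Rbbp7 right of 0, and Phf1 is filled in the EPS lines alone.

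Between the untransduced states, EPS against ES, 3 genes were higher in EPS cells and 1 lower, beside 30.6% of 16440 tested genes called (13.8% higher and 16.9% lower). Rbbp7 was 456 to 536 CPM in EPS and 319.5 to 341 CPM in ES, without overlap (log2 0.67 ± 0.11 SE, adjusted p = 0.00022). Eed was 289, 353 and 374 CPM in EPS and 225, 269.8 and 285 CPM in ES, again without overlap (0.45 ± 0.12, adjusted p = 0.00917). Phf19 was low in both, at 4.76 to 5.54 against 2.56 to 3.30 CPM (0.85 ± 0.25, adjusted p = 0.0154). Aebp2 was lower in EPS, at 101 to 116 against 132 to 166 CPM (-0.45 ± 0.09, adjusted p = 0.00124). These 4 genes belong to different layers of the complex, and neither methyltransferase gene was called.

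The log2 differences of Ezh2 (-0.14 ± 0.09), Suz12 (-0.18 ± 0.10) and Jarid2 (0.01 ± 0.10) missed the threshold. With the replicate number as a block, Ezh1 (log2 0.26, adjusted p = 0.0495) and Phf1 (0.40, adjusted p = 0.0184) were also called higher. Whether the numbers pair these libraries was not established, and the main fit has no such block. Without EPS replicate 1, Eed (adjusted p = 0.0590) and Phf19 (0.0593) were lost, and Phf19 was also lost without ES replicate 3 (0.0547). With only the ES and EPS libraries in the fit Eed missed the threshold (0.0502) at the same log2 difference of 0.45. Suz12 was called lower without ES replicate 2 (0.0288), Mtf2 without EPS replicate 2 (0.0339), and Phf1 higher without EPS replicate 3 (0.0434). Replicate 3 stood apart in both states (chi-square per gene of 24.0 to 34.3 from the other replicates, which differed by 5.92 and 6.80 from each other), and 4 genes were called with it left out, an alternative chosen after seeing the data. The 12 fibroblast markers, none at 0, summed to 2626 to 4565 CPM in the ES libraries and to 820 to 1362 CPM in the EPS ones. Of these markers 9 were called lower in EPS and none higher, and Vim averaged 574 CPM in EPS and 489 CPM in ES. The part of these markers was not tested.

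The construct controls, EPS shCtrl against ES oeCtrl, give the same states in other lines but differ also in the construct, which cannot be told apart from the state. Here 3 genes were higher and 5 lower, beside 40.4% of all genes called (19.7% higher and 20.7% lower). Eed (log2 0.61) and Rbbp7 (0.43) were higher and Aebp2 (-0.30) lower, as between EPS and ES. Phf19 had the other sign, 3.65 and 6.93 CPM in EPS shCtrl against 11.4 and 12.9 CPM in ES oeCtrl (log2 -1.23 ± 0.28, adjusted p = 0.00249). Ezh2 was 149.8 and 152 against 246 and 244 CPM (-0.71 ± 0.11) and Ezh1 30.5 and 36.2 against 53.4 and 59.0 CPM (-0.78 ± 0.14), both lower in EPS shCtrl without overlap. Jarid2 was higher, at 372 and 443 against 248 and 269 CPM (0.63 ± 0.12), and Phf1 lower (-0.77 ± 0.26).

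The calls of Phf1, Aebp2 and Rbbp7 in the construct controls did not hold in all alternatives. Without EPS shCtrl replicate 2, ES oeCtrl replicate 1 or ES oeCtrl replicate 2, all 3 were lost and 5 genes were past the threshold. Those adjusted p-values were 0.167, 0.0941 and 0.0790 for Phf1, 0.128, 0.174 and 0.0937 for Aebp2, and 0.237, 0.103 and 0.0782 for Rbbp7. Aebp2 was also lost without EPS shCtrl replicate 1 (0.0777) and, with all libraries kept, under RLE scaling (0.0595), without the filter (0.0825) and with only the libraries compared (0.0578), while its log2 difference stayed between -0.34 and -0.27 in these fits.

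On day 6 the same controls, EPS origin against ES origin, gave 5 genes higher and 4 lower, with 64.1% of 15927 genes called (31.6% higher and 32.4% lower). Ezh1 had the other sign here than in the undifferentiated controls, and the difference between the stages was not tested as such. It was 30.1 and 32.0 CPM in EPS shCtrl and 15.5 and 18.1 CPM in ES oeCtrl, higher by 0.75 ± 0.09 on the log2 scale (adjusted p = 3.58e-10). Mtf2 was higher (115 and 119 against 76.7 and 78.4 CPM, log2 0.45 ± 0.05), and Aebp2 (-0.37), Eed (-0.34) and Phf19 (-0.86) were lower. Suz12 (0.14), Phf1 (0.25) and Rbbp7 (0.10) were called higher by small amounts. None of these 3 was called under DESeq2 (adjusted p = 0.0824, 0.0873 and 0.0510), nor was Rbbp7 under RLE scaling (0.0560). Without day 6 EPS shCtrl replicate 1 the calls of Suz12 (adjusted p = 0.238) and Rbbp7 (0.127) were lost, and without replicate 2 those of Phf1 (0.0935) and Rbbp7 (0.201). Without day 6 ES oeCtrl replicate 1 Suz12 (0.146) and Rbbp7 (0.135) were lost, and without replicate 2 Phf1 (0.0708) and Rbbp7 (0.0640). Ezh2 was called lower (-0.19) although its CPM overlapped (121 and 129 against 125 and 133). The fitted changes of the 10 genes lay a median of 0.15 below their log2 CPM ratios in this comparison.

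**Figure D3:**
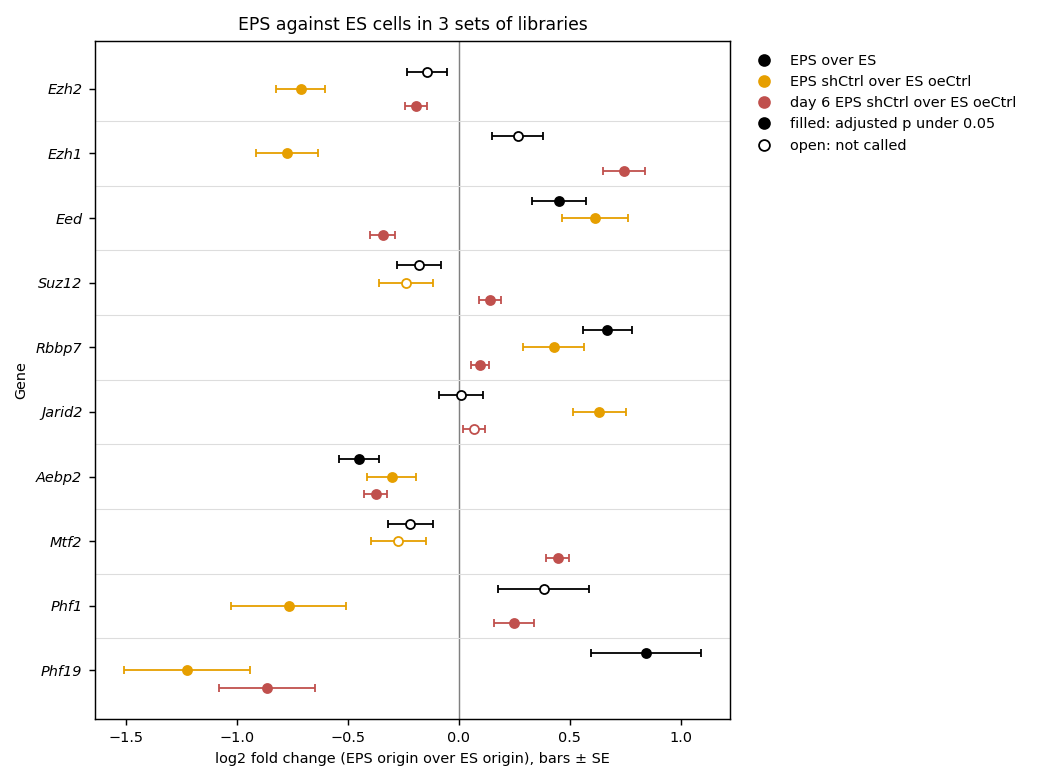
Fitted log2 fold change of each PRC2 gene in cells of EPS origin over cells of ES origin (horizontal axis, points ± SE) in untransduced cells, in construct controls and in the same controls on day 6; filled points have an adjusted p under 0.05. Aebp2 lies left of 0 in all 3 sets, whereas Ezh1 lies at -0.78 in the undifferentiated controls and at 0.75 on day 6.

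The hairpin comparison in undifferentiated EPS cells asks whether PRC2 genes differ along with the Yy1 level. The hairpin cannot be told apart from other differences between these lines. In EPS shYy1 against EPS shCtrl, 2 genes were higher and 2 lower, beside 28.5% of 16440 genes called (15.1% higher and 13.3% lower). Ezh1 was 52.3 and 60.4 CPM against 30.5 and 36.2 CPM (log2 0.70 ± 0.14 SE, adjusted p = 0.00137). Mtf2 was 440.2 CPM in both libraries against 257 and 312 CPM (0.57 ± 0.13, adjusted p = 0.00286). Both stood above their control without overlap. Eed was 121 CPM in both libraries against 193.5 and 205.7 CPM (-0.79 ± 0.15, adjusted p = 0.000973), and Jarid2 279.8 and 328 against 372 and 443 CPM (-0.48 ± 0.12, adjusted p = 0.006). These stood below it.

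Ezh2 had 149 and 152 CPM in EPS shYy1 and 149.8 and 152 CPM in EPS shCtrl, which overlapped (log2 -0.07 ± 0.11, adjusted p = 0.669). Jarid2 was lost without EPS shYy1 replicate 1 (adjusted p = 0.0955), and Phf19, not called with all libraries (0.66 ± 0.29, adjusted p = 0.0954), was called without EPS shCtrl replicate 1 (0.0154) or EPS shYy1 replicate 2 (0.0499). X-linked genes were higher as a class in EPS shYy1 (median log2 0.83, 339 of 579 called higher), while X-linked Rbbp7 differed by 0.20 ± 0.14 (adjusted p = 0.285). With X-linked and Y-linked genes left out of the fit, chosen after seeing the data, 4 of the PRC2 genes were again called. Each gene is tested on its own counts, so this refit cannot show whether the sex-linked difference between the lines played a part. That was not tested.

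On day 6 the libraries labelled EPS shYy1, in which Yy1 itself was not called different from the control, had 2 PRC2 genes higher and 5 lower, beside 61.3% of 15927 genes called (30.9% higher and 30.4% lower). Ezh1 was 16.4 and 16.6 CPM against 30.1 and 32.0 CPM (log2 -0.78 ± 0.09, adjusted p = 1.26e-10), and Ezh2 80.3 and 79.8 against 121 and 129 CPM (-0.51 ± 0.05, adjusted p = 1.07e-12). Both enzyme genes were thus lower without overlap. Mtf2 was 79.5 and 76.4 against 119 and 115 CPM (-0.45), Jarid2 90.7 and 88.4 against 122 and 129 CPM (-0.35), and Phf1 19.3 and 23.0 against 28.8 and 29.7 CPM (-0.35). Phf1 was lost without the day 6 EPS shYy1 replicate 1 (adjusted p = 0.109).

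Rbbp7 was higher in the day 6 libraries labelled EPS shYy1, at 783 and 772.7 against 569 and 574 CPM (log2 0.58 ± 0.04, adjusted p = 6.21e-19), where the median of 549 X-linked genes was 0.27. Eed was higher by 0.24 ± 0.06 (adjusted p = 0.000328). Suz12 (-0.11, adjusted p = 0.0651) was called lower without day 6 EPS shCtrl replicate 2 (0.0390) or day 6 EPS shYy1 replicate 1 (0.0405), and Aebp2 (0.10) higher without day 6 EPS shYy1 replicate 2 (0.0284). Summed mitotic markers were lower in the libraries labelled EPS shYy1 (1794 to 1829 against 2617 to 2654 CPM, with 11 of 12 called lower), and their part was not tested.

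In undifferentiated ES cells with the Yy1 construct, 3 genes were lower and none higher than in ES oeCtrl. Beside them 32.0% of 16440 genes were called (14.8% higher and 17.1% lower). The construct cannot be told apart from other differences between these lines. Ezh2 was 164.6 and 164.4 CPM in ES oeYy1 and 246 and 244 CPM in ES oeCtrl (log2 -0.58 ± 0.11 SE, adjusted p = 0.000681). Phf19 was 4.38 and 5.07 against 12.9 and 11.4 CPM (-1.36 ± 0.29, adjusted p = 0.00165). Both genes were lower without overlap. Mtf2 was also lower (264 and 272 against 340.3 and 338 CPM, -0.34 ± 0.13, adjusted p = 0.046), a call lost under RLE scaling (0.0728), under DESeq2 (0.0567) and without ES oeCtrl replicate 1 (0.138), ES oeCtrl replicate 2 (0.160), ES oeYy1 replicate 1 (0.201) or ES oeYy1 replicate 2 (0.146). With only these 4 libraries in the fit 7 genes were called, Aebp2 (-0.18) and Ezh1 (-0.25) also lower and Eed (0.30) and Jarid2 (0.17) higher. The Y-linked sum was lower in ES oeYy1, as given above.

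On day 6, ES oeYy1 had 5 PRC2 genes higher and 1 lower than ES oeCtrl, beside 41.9% of 15927 genes called (20.3% higher and 21.6% lower). Ezh1 was 26.0 and 25.0 CPM against 15.5 and 18.1 CPM (log2 0.57 ± 0.10, adjusted p = 3.76e-06), and Ezh2 163 and 156 against 125 and 133 CPM (0.27 ± 0.05, adjusted p = 1.31e-05). Aebp2 was 139 and 137 against 107 and 104 CPM (0.35 ± 0.05, adjusted p = 1.54e-07). These genes were higher without overlap. Mtf2 (0.27) and Jarid2 (0.18) were also higher, Jarid2 not without day 6 ES oeCtrl replicate 1 (adjusted p = 0.0826), and Rbbp7 was lower (-0.21 ± 0.04, adjusted p = 3.09e-05). Of the 12 mitotic markers 9 were called higher and 1 lower, and their part was not tested.

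**Figure D4:**
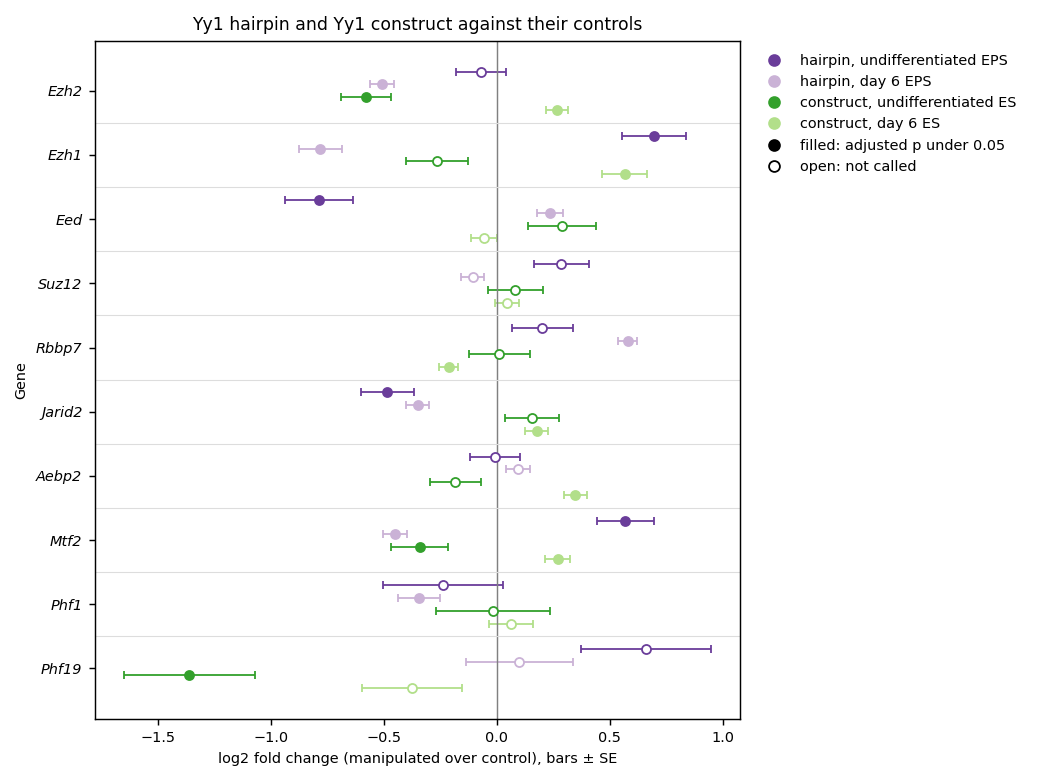
Fitted log2 fold change of each PRC2 gene (horizontal axis, points ± SE) for the Yy1 hairpin in EPS cells and the Yy1 construct in ES cells, each against its control, in the undifferentiated state and on day 6; filled points have an adjusted p under 0.05. Ezh1 lies at 0.70 and -0.78 for the hairpin, and Ezh2 at -0.58 and 0.27 for the construct.

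Whether the difference of each manipulated line from its control changed between the stages was tested directly as an interaction. This difference is called the effect here, whatever its cause. For the hairpin line, 4 genes had a lower effect on day 6 than before and 2 a higher one, beside 41.5% of 17207 genes called (20.1% lower and 21.4% higher). Since Yy1 was not called different in the day 6 libraries labelled EPS shYy1, a change here cannot be assigned to Yy1. Ezh1 (log2 difference of effects -1.48 ± 0.15 SE, adjusted p = 1.32e-07), Mtf2 (-1.03 ± 0.10, adjusted p = 6.65e-08), Ezh2 (-0.44 ± 0.10, adjusted p = 0.0012) and Suz12 (-0.40 ± 0.10, adjusted p = 0.00347) were the 4, and Eed (1.02 ± 0.10, adjusted p = 1.26e-07) and Rbbp7 (0.37 ± 0.13, adjusted p = 0.0228) the 2. Ezh1, Mtf2 and Eed were called in opposite directions at the 2 stages, and Jarid2 was lower at both with no called difference between them (0.13 ± 0.12, adjusted p = 0.415). Rbbp7 was no longer called when EPS shCtrl replicate 2 (adjusted p = 0.236), EPS shYy1 replicate 1 (0.119), day 6 EPS shCtrl replicate 1 (0.0785) or 2 (0.0503), or day 6 EPS shYy1 replicate 1 (0.0675) was left out, or with only the libraries compared (0.0896). Phf19 was called without EPS shCtrl replicate 1 (0.0206).

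For the construct, 4 genes had a higher effect on day 6 and 1 a lower one, beside 37.6% of all genes called (17.7% higher and 19.9% lower). Ezh2 (0.81 ± 0.10, adjusted p = 1.83e-06), Ezh1 (0.79 ± 0.15, adjusted p = 0.000306), Mtf2 (0.58 ± 0.10, adjusted p = 0.000109) and Aebp2 (0.50 ± 0.10, adjusted p = 0.00048) were the 4. Eed was the gene with a lower effect (-0.38 ± 0.10, adjusted p = 0.0059), lost without day 6 ES oeCtrl replicate 1 (0.0638) or ES oeYy1 replicate 2 (0.0626). Phf19 was not called (0.95 ± 0.40, adjusted p = 0.0683), but was called higher without the filter (0.0166) and with only the libraries compared (0.00448). Rbbp7, likewise not called (-0.26 ± 0.13, adjusted p = 0.119), was called lower with only the libraries compared (0.0239). The hairpin and construct comparisons use different control libraries and different cells.

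Other genes of the Polycomb system were read from lists. Among 7 further PRC2 genes, 1 was called higher and 5 lower on day 6 in EPS shCtrl, and 1 and 3 in EPS shYy1. The counts were 2 and 2 in ES oeCtrl and 2 and 4 in ES oeYy1. The shares of all genes called are given above. Of the 7 genes, Epop, which encodes an inhibitory partner found with MTF2, fell on day 6 in every line. Its log2 changes were -2.84, -1.97, -0.89 and -2.23 in EPS shCtrl, EPS shYy1, ES oeCtrl and ES oeYy1. It was 292 and 360.0 CPM in EPS shYy1 against 397 and 539.6 CPM in EPS shCtrl (log2 -0.59, adjusted p = 0.0278), and 297 and 289 CPM in ES oeYy1 against 143 and 150.1 CPM in ES oeCtrl (0.99, adjusted p = 0.000902). It was thus lower in the hairpin line and higher in the construct line than in their controls in undifferentiated cells. On day 6 both signs were the other way, with 0.29 (adjusted p = 3.48e-05) in the libraries labelled EPS shYy1 and -0.31 (adjusted p = 3.67e-05) in ES oeYy1, and both differences between the stages were called (0.87, adjusted p = 0.00352, and -1.34, adjusted p = 0.000191). Rbbp4, the relative of Rbbp7, ranged from 318 to 487 CPM over all libraries, and of the 4 day 6 changes only that in EPS shCtrl was called (-0.25, adjusted p = 0.00647). Lcor, which encodes another partner of PRC2, was called lower on day 6 in EPS shCtrl (-1.26) and ES oeYy1 (-1.05). Eloc, also among the 7, went the other way. Its group means in the 4 lines were 26.6 to 47.6 CPM before and 96.8 to 105.0 CPM on day 6.

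In PRC1, the complex that ubiquitinates histone H2A, 14 core and canonical genes were tested. On day 6, 5 rose and 6 fell in EPS shCtrl, 3 and 8 in EPS shYy1, 3 and 10 in ES oeCtrl, and 2 and 9 in ES oeYy1. Of all genes 74.1%, 75.4%, 73.0% and 72.7% were called in these lines, and 36.6%, 37.4%, 35.9% and 36.9% were called lower. The number of PRC1 genes called in either direction is near these shares except in ES oeCtrl, where it is higher. The share of PRC1 genes that fell lay above the all-gene share in every line, least so in EPS shCtrl. This excess was not tested. Cbx7, the reader subunit of ES cells, and Phc1 fell in all 4 lines (Phc1 log2 -2.56, -2.69, -1.26 and -1.33), while Phc2 rose in all 4 (1.89, 1.74, 2.47 and 2.45). Among 29 genes known as PRC2 targets in ES cells, 27 were tested on day 6. Of these 17 rose and 5 fell in EPS shCtrl, 15 and 7 in EPS shYy1, 17 and 6 in ES oeCtrl, and 17 and 4 in ES oeYy1, with median log2 changes of 1.72, 1.27, 1.66 and 2.40. In either direction, the number of targets called is near the shares of all genes called given above. The share of all genes called higher was 37.5%, 37.9%, 37.1% and 35.7%, and the share of targets that rose lay above it in every line. This excess was not tested. The mesoderm factor gene Hand1 rose from 0.470 and 0.819 CPM to between 150.1 and 157 CPM in EPS shCtrl, while Olig2, a neural factor gene, fell from between 26.8 and 38.6 CPM to 0.905 and 0.994 CPM. Between groups on day 6, 14 of 25 tested targets were lower and 3 higher in the libraries labelled EPS shYy1, where 30.4% of all genes were lower and 30.9% higher. In ES oeYy1 13 were higher and 4 lower, where 20.3% of all genes were higher and 21.6% lower.

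Genes whose pattern over the 10 group means was most like that of the enzymes were sought among 11098 genes averaging 5 CPM or more. Nearest to Ezh1 were Gm16185 (Pearson r = 0.983), Ube2t (0.980), Tbc1d31 (0.976), Mtg1 (0.975) and Ncapg (0.973). Nearest to Ezh2 were Zc3hc1 (0.974), 2610044O15Rik8 (0.961), Tti2 (0.961), Tmem209 (0.953) and Prmt7 (0.949). Ezh1 itself had r = 0.688 with Ezh2 over the same 10 means, so the enzyme genes are not each other's nearest.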

How the data were processed

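Whole-number gene counts per library were deposited by the authors for 22 RNA-seq libraries, not normalized; 41 of the 63 samples of the series were not analysed here. Per the submitters' processing notes, CASAVA, Bowtie2 2.3.2 and the builds mm10 and GRCm38.p6 were used, with no role given. The counting program and its strand setting are not given in the sources used here, so overlapping and antisense genes cannot be told apart. The rows that name no gene (no feature 5.61 to 8.62%, ambiguous 3.70 to 5.32%, not unique 5.45 to 6.66% of all counts) stayed out of library sizes. Levels are CPM of gene counts.

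Tests used edgeR 4.0.16 in R 4.3.3 (TMM, filterByExpr, robust quasi-likelihood F-test, Benjamini-Hochberg over all genes tested, called under 0.05) in 3 models: 14 undifferentiated libraries, 8 day 6 libraries, and the 16 libraries of the 4 manipulated lines. They gave 13 comparisons. The code was tested on simulated data with 200 changed genes per comparison. Of the 1.5-fold changes, 14.9 to 38.8% were called between undifferentiated groups and 61.2 to 70.2% between day 6 groups. Across the comparisons 3.92 to 11.1% of the simulated calls were false. Far fewer genes were changed there than were called in the real comparisons, so these rates may not carry over to them. A gene not called is not shown to be unchanged. Alternatives were RLE scaling, DESeq2 1.42.0, no filter, only the libraries compared, each library left out, and the replicate number as a block. In EPS against ES, same-numbered libraries deviated together (r = 0.245, 0.322 and 0.546 over 11072 genes). Libraries of unlike number were not compared, and replicate 3 stood apart in both states, so pairing was not established. Log2 CPM ratios of the 10 genes minus their fitted changes had medians of -0.13 to 0.15 across comparisons, and no called gene had the other sign in CPM. The members and lists were chosen with earlier results of these data known. All 10 members were tested in every comparison. Members that were called are described in each, and members that were not called are described in some only. From the other lists the 2 called genes of smallest p in each direction with an average of at least 5 CPM could be named. Rbbp4, Epop and Lcor could be named besides. Counting error alone allows up to 3 counts where none were seen.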

Additional observations from a re-analysis of the deposited data

Results flagged for a closer look

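These genes were singled out because the difference of a manipulated line from its control changed between undifferentiated cells and day 6 by the interaction test. For the hairpin the log2 difference of effects was -1.48 for Ezh1, -1.03 for Mtf2, -0.44 for Ezh2, -0.40 for Suz12, 1.02 for Eed and 0.37 for Rbbp7. For the construct it was 0.79 for Ezh1, 0.81 for Ezh2, 0.58 for Mtf2, 0.50 for Aebp2 and -0.38 for Eed. On day 6 Yy1 was not called different between the libraries labelled EPS shYy1 and their control. With no group of 4 or more libraries, no gene's values were tested for a single outlying library within a group.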

How the results depend on the processing

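No called change of a PRC2 gene turned its direction under any alternative. Of 1289 re-tests of a single gene, 59 lost the call and 23 gained one. The number of PRC2 genes called stayed within 1.5 times its value in 124 of 129 re-tests. It went from 4 to 2 in EPS against ES without EPS replicate 1 (range over single libraries left out, 2 to 5), from 8 to 5 in EPS shCtrl against ES oeCtrl (range 5 to 7), and from 3 to 7 in ES oeYy1 against ES oeCtrl with only the libraries compared. The number of all genes called went from 4682 to between 2571 and 4853 for EPS shYy1 against EPS shCtrl when a single library was left out, from 5255 to between 3065 and 3614 for ES oeYy1 against ES oeCtrl, and to 8149 in the latter with only the libraries compared. The cause was not tested. In TMM-scaled CPM, 37 of 100 group means moved by more than their SD.

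Outside EPS against ES the replicate numbers were not shown to pair libraries either (r of deviations -0.069 to 0.118). With the replicate block Eed in ES oeYy1 (adjusted p = 0.0142), Mtf2 in EPS shCtrl against ES oeCtrl (0.0486), and Phf19 (0.0390) and Suz12 (0.0368) in EPS shYy1 were called as well. Ezh1 on day 6 in EPS shCtrl (0.0520) and Rbbp7 between the day 6 controls (0.0546) were not, and no other call of a PRC2 gene changed.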
